A study of Mus musculus with 10 samples.

Results

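The histone genes described here are 30 of the 19938 genes measured on the arrays: all genes whose symbol is that of an H1, H2a, H2b, H3 or H4 gene of the numbered histone series and that have a probe set annotated to that symbol alone. They comprise 8 H1, 4 H2a, 9 H2b, 3 H3 and 6 H4 genes. The rule would keep the brightest probe set of a gene with several, but each of the 30 had 1 probe set, so that the probe sets follow from the annotation alone; the gene family itself was chosen for description with earlier results of these data known. Of the 30, 24 are replication-dependent genes, 5 are germ line histone genes (H1f6, H1f7, H1f8, H2ac1 and H2bc1) and 1, H1f10, encodes a replication-independent linker histone. All 30 were matched by Entrez identifier to RefSeq (GRCm38.p6), which places 23 on chromosome 13, 4 on chromosome 3 (H2bc18, H2bc21, H3c15 and H4c14), H1f8 and H1f10 on chromosome 6, and H1f7 on chromosome 15.

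RNA came from mice with a knockdown (KD) of VAChT and from wild-type (WT) mice. VAChT, the product of Slc18a3, loads acetylcholine into the vesicles of cholinergic neurons. There were 2 arrays of KD hearts and 2 of WT hearts, and 3 arrays of KD ventricular cardiomyocytes and 3 of WT ventricular cardiomyocytes, the contractile cells of the lower heart chambers. All mice were male, of strain C57BL/6 and 3 months old, and received no treatment. The series title calls the KD hearts KDHOM. The sources used here do not give the allele or the tissue in which the knockdown acts. RNA of 2 samples was pooled for each array. Nothing beyond the pooling says that the arrays of a group came from separate animals, so that a p-value here covers the array-to-array spread alone, part of which may be technical. Values are log2 intensities, on which a difference of 1 is a 2-fold change.

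Each time a cell copies its DNA it must package the copy, and replication-dependent histone genes supply the H1, H2A, H2B, H3 and H4 proteins for this in S phase. H2A, H2B, H3 and H4 form the nucleosome core around which DNA is wound, and H1 binds the linker DNA between cores. Most of these genes lie in clusters, have no introns and are transcribed under the coactivator NPAT, and their mRNAs end in a stem-loop bound by SLBP in place of a poly(A) tail. Some can also give polyadenylated mRNAs in cells that do not divide. Adult cardiomyocytes divide rarely, whereas cells that divide often make these mRNAs in large amounts. The histone genes of a family encode nearly the same protein from similar coding sequences, so a probe set annotated to a single gene may take up signal of another copy, which was not tested.

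The promoters of a few members are shown because each carries at least 1 of the elements marked below and because these genes recur in the results. Each is the 200 bases before the transcription start on the gene's own strand, written 5′ to 3′, from RefSeq (GRCm38.p6). Capitals mark matches, on either strand, to TATAAA (the TATA element), CCAAT (the CCAAT box), ATTTGCAT (the octamer bound by Oct-1) and AAACACA (the H1 box); no matches overlap in these sequences.
H4c4, chr13:23581368-23581567, plus strand: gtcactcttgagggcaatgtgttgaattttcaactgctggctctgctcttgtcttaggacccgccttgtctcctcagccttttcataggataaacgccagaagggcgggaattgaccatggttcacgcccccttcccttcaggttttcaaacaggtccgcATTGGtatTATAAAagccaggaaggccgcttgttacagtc
H4c3, chr13:23698459-23698658, minus strand: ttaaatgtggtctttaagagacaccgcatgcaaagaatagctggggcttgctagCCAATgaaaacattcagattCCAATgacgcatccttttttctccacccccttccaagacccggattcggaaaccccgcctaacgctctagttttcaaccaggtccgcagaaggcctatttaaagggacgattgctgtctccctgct
H1f5, chr13:21780626-21780825, minus strand: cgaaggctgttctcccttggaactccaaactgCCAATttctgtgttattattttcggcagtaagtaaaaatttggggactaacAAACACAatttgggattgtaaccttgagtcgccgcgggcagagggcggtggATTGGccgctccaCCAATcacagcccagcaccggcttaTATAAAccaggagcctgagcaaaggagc
H1f2, chr13:23738607-23738806, plus strand: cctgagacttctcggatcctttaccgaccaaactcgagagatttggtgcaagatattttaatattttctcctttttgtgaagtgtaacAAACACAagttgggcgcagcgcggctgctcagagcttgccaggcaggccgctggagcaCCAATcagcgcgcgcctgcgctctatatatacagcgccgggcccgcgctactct
H2bc14, chr13:21721844-21722043, plus strand: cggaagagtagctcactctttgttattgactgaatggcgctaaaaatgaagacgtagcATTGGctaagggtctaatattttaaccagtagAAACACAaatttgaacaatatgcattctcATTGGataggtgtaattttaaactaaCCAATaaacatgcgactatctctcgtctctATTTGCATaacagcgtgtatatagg
H4c4 and H4c3 are H4 genes, H1f5 and H1f2 linker histone genes, and H2bc14 an H2B gene. H1f5 and H1f2 hold an H1 box 117 and 112 bases before the start, and H2bc14 holds an octamer 25 bases before it. Such windows were found for 26 of the 30 members; H3c7, H2bc21, H2bc4 and H4c14 had no entry in the table. The TATA element was found in 12 of the 26 member windows and in 9.96% of all 32851 promoter windows of the same length. The CCAAT box was found in 20 of the 26, against 29.3% of all windows. The octamer was found in 3 of 4 H2a and 5 of 7 H2b windows and in no window of the other families, against 1.38% of all windows. The H1 box was found in 4 of 8 H1, 1 of 4 H2a and 2 of 7 H2b windows, against 4.8% of all windows.

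The arrays bear on the results in several ways. Slc18a3 had 7.31 and 7.84 in KD hearts, against 7.34 and 7.72 in WT hearts, and 6.22, 6.52 and 6.21 in KD cardiomyocytes, against 6.06, 6.37 and 6.04 in WT cardiomyocytes, so that it was not lower in KD; the sources used here do not give the altered part of the gene, and a probe set outside it checks nothing. The 14 cardiomyocyte markers averaged 12.58 and 12.68 in KD hearts and 12.81 and 12.73 in WT hearts, and 12.71 to 12.73 in KD and 12.66 to 12.75 in WT cardiomyocytes. The KD heart arrays correlated at 0.980 with each other, below the 0.993 of the WT heart arrays. KD heart replicate 1 stood apart: a list of 13 thymocyte markers averaged 9.71 in it and 6.90 in KD heart replicate 2, against 6.72 and 6.94 in the WT hearts. Heart results are therefore given with both KD arrays beside the pooled difference. For a typical member, the 95% confidence interval of the difference between KD and WT extended 0.37 to either side in hearts, a 1.29-fold difference, and 0.30 in cardiomyocytes, a 1.23-fold difference. The intervals and p-values rest on a spread per gene shared by all 10 arrays. Where the KD hearts lie far apart, the cardiomyocyte arrays narrow the heart interval and lower the heart p-value. The KD hearts in turn widen the cardiomyocyte interval of such a gene and raise its cardiomyocyte p-value.

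In whole hearts, most histone genes lay higher in KD than in WT, and all H4 and H2a genes did so in both KD arrays. The difference was positive in 27 of the 30 members, against 52.5% of all genes, and negative in 3, against 47.4%. Its median was 0.40, against 0.01 over all genes. In 20 members both KD arrays lay above both WT arrays, against 14.2% of all genes, and in 1, H2bc4, both lay below, against 15.4%. No member passed an adjusted p of 0.05 in limma over 19938 genes (0% of all genes did), while 18 members had an unadjusted p under 0.05 with a higher KD mean, against 2.44% of all genes, and 0 with a lower one, against 2.49% (4.93% in either direction). A gene that is higher in a bulk sample may reflect more cells of a type or more RNA per cell, which cannot be told apart, and likewise fewer cells and less RNA.

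The KD arrays differed in size more than in direction. KD heart replicate 1 lay above the WT mean in 26 members (40.8% of all genes), with a median of 0.49 against -0.04 over all genes, and KD heart replicate 2 in 27 (58.6%), with a median of 0.21 against 0.04. A distance of at least 1 above the WT mean was reached by KD heart replicate 1 in 10 members (0.943% of all genes) and KD heart replicate 2 in 0 (0.0451%). Each lay above both WT arrays in 23 (26.7%) and 25 (45.8%) members. In 20 members KD heart replicate 1 was the higher of the KD arrays, against 37.2% of all genes. Without KD heart replicate 1 the median difference over the members was 0.21, with 27 of 30 higher (58.6% of all genes), 8 at an unadjusted p under 0.05 (10% of all genes) and 0 past the adjusted threshold in limma (0.00502% of all genes, and 0% higher). Of these 8, 7 were higher (5.37% of all genes) and 1, H2bc4, was lower. Without KD heart replicate 2, where the remaining KD array has to borrow its spread from the other groups, the median was 0.49 and 12 members were called higher (1.48% of all genes, and 1.52% in either direction). The thymocyte markers moved with KD heart replicate 1; their part in the result was not tested, and the values without that array are those of KD heart replicate 2.

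**Figure D1:**
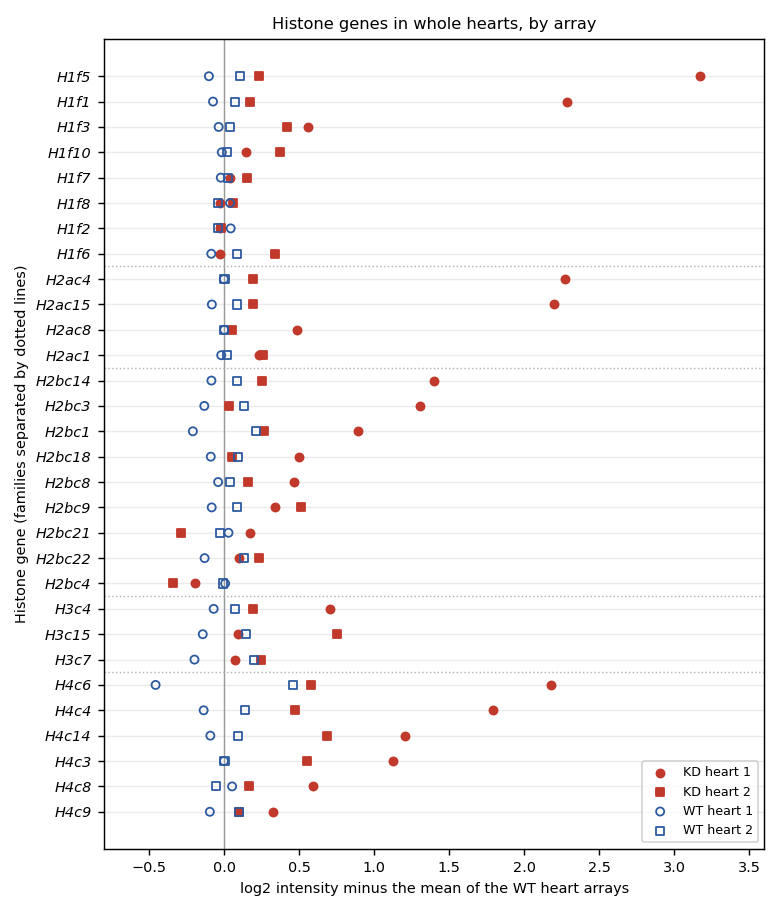
Log2 intensity of each of the 30 histone genes minus the mean of the WT heart arrays (x axis) in every heart array, with genes grouped by family along the y axis and KD and WT arrays marked by symbol. KD heart replicate 1 reaches 3.17 above the WT mean for H1f5, while KD heart replicate 2 stays under 1 for every member.

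Of the genes that encode the H4 core histone, H4c14, H4c3, H4c4 and H4c6 had the smallest p-values among the members. All 6 had both KD heart arrays above both WT arrays, against 14.2% of all genes, with a median difference of 0.89. The medians over the 6 were 1.16 above the WT mean in KD heart replicate 1 and 0.51 above it in KD heart replicate 2. H4c14, on chromosome 3, had 11.38 and 10.86 in KD hearts, against 10.08 and 10.27 in WT hearts. The KD arrays lay above the WT arrays without overlap. The means were 11.12 ± 0.37 in KD and 10.18 ± 0.13 in WT hearts (SD, n = 2 each), a difference of 0.94 (SE 0.17, 95% confidence interval 0.58 to 1.30). Its unadjusted p of 8.12e-05 was the smallest of all 19938 genes, and the limma adjusted p was 0.713. Without KD heart replicate 1 the difference was 0.68 (SE 0.16, limma adjusted p 0.214).

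H4c3, whose promoter is shown above, had 8.91 and 8.34 in KD hearts, against 7.78 and 7.79 in WT hearts. Here too the groups did not overlap, and the WT arrays lay close together. The difference was 0.84 (SE 0.19, interval 0.43 to 1.25, limma adjusted p 0.871) and 0.55 without KD heart replicate 1 (adjusted p 0.361). H4c4 had 11.18 and 9.86 in KD hearts, against 9.25 and 9.52 in WT hearts, a difference of 1.13 (SE 0.30, interval 0.49 to 1.78, limma adjusted p 0.94). H4c6 had 9.98 and 8.38 in KD hearts, against 7.34 and 8.26 in WT hearts, a difference of 1.38 (SE 0.40, interval 0.52 to 2.25, limma adjusted p 0.95). In H4c6 the WT arrays lay farther apart than in the other H4 genes, and KD heart replicate 2 was only slightly above the higher of them. Without KD heart replicate 1 the difference was 0.47 for H4c4 (limma adjusted p 0.408) and 0.58 for H4c6 (0.559). H4c8 and H4c9, which the rule for named genes did not take, had smaller differences of 0.38 and 0.21. KD heart replicates 1 and 2 lay 0.59 and 0.17 above the WT mean for H4c8 and 0.33 and 0.10 above it for H4c9, and in H4c9 KD heart replicate 2 and WT heart replicate 2 both stood at 7.74.

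The H1 genes encode the linker histones that compact nucleosome arrays, and they split. Of the 4 replication-dependent H1 genes, H1f5, H1f1 and H1f3 lay higher in KD hearts and H1f2 did not. H1f5, the linker histone H1.5, had 12.20 and 9.26 in KD hearts, against 8.92 and 9.13 in WT hearts. Relative to the WT mean, KD heart replicate 1 was 8.99-fold higher, the highest such value among the members, and KD heart replicate 2 was 1.18-fold above it. The difference was 1.70 (SE 0.59, interval 0.41 to 2.99, limma adjusted p 0.95), and 0.23 without KD heart replicate 1 (adjusted p 0.667). H1f1, the linker histone H1.1, had 10.50 and 8.39 in KD hearts, against 8.15 and 8.30 in WT hearts, with a difference of 1.23 (SE 0.46), and 0.17 without KD heart replicate 1. In both genes KD heart replicate 2 lay just above the WT arrays. The SDs over the KD hearts were 2.08 for H1f5 and 1.49 for H1f1. The shared spread gives these genes smaller SEs than the spread of the heart arrays alone would.

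H1f3, the linker histone H1.3, was about as far above WT in both KD arrays, at 6.52 and 6.38 in KD hearts, against 5.92 and 6.00 in WT hearts. Its difference was 0.49 (SE 0.18, interval 0.09 to 0.88, limma adjusted p 0.95). H1f2, the linker histone H1.2, had 9.09 and 9.10 in KD hearts, against 9.16 and 9.08 in WT hearts. These values overlapped, and the difference was -0.02 (SE 0.15, interval -0.35 to 0.30), which turned above 0 with quantile normalization or removal of the intensity trend. H1f2 and H1f5 share the H1 box in the promoter sequences above, and KD heart replicate 1 lay at -0.03 for H1f2 and 3.17 for H1f5 relative to the WT mean. The part of the H1 box was not tested.

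Among the H2a genes, which encode the H2A core histone, 3 are replication-dependent, and their median difference was 1.20, with medians of 2.20 above the WT mean in KD heart replicate 1 and 0.19 in KD heart replicate 2. H2ac15 had 8.52 and 6.51 in KD hearts, against 6.23 and 6.40 in WT hearts, a difference of 1.20 (SE 0.42, interval 0.30 to 2.10, limma adjusted p 0.95). H2ac4 had 6.69 and 4.61 in KD hearts, against 4.42 and 4.42 in WT hearts, a difference of 1.23 (SE 0.43). In both, the groups did not overlap, but KD heart replicate 2 lay only 0.19 above the WT mean while KD heart replicate 1 lay 2.20 and 2.27 above it. H2ac8 was dim, at 4.14 and 3.70 in KD hearts, against 3.65 and 3.65 in WT hearts, with a difference of 0.27.

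The 9 H2b genes, for the H2B core histone, had a median difference of 0.31, with medians of 0.47 and 0.16 above the WT mean in KD heart replicates 1 and 2, and included members on both sides of 0. H2bc14, with the octamer in its promoter, had 9.83 and 8.68 in KD hearts, against 8.34 and 8.51 in WT hearts, a difference of 0.82 (SE 0.26, interval 0.26 to 1.39, limma adjusted p 0.95). H2bc3 had 8.87 and 7.60 in KD hearts, against 7.43 and 7.70 in WT hearts. Its groups overlapped, since KD heart replicate 2 lay between the WT arrays, and the difference was 0.67 (SE 0.28). H2bc9 differed from these in that KD heart replicate 2 was the higher KD array, at 9.47 and 9.64 in KD hearts, against 9.05 and 9.21 in WT hearts, with a difference of 0.42 (SE 0.16, interval 0.09 to 0.76).

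H2bc4 was the one member with both KD hearts below both WT hearts, at 10.36 and 10.22 in KD, against 10.56 and 10.55 in WT. The difference was -0.27 (SE 0.12, interval -0.54 to 0.003, limma adjusted p 1). H2bc22 had 6.60 and 6.72 in KD hearts, against 6.36 and 6.62 in WT hearts, with a difference of 0.17. Its groups overlapped. RefSeq gives H2bc4, H2bc21 and H2bc22 loci of 8282, 2667 and 14079 bases, whereas the other 21 replication-dependent members span 375 to 903 bases, which is near the size of an intronless histone transcript. The heart differences of these 3 long loci were -0.27, -0.06 and 0.17. Those of the other 21 ran from -0.02 (H1f2, 725 bases) to 1.70 (H1f5, 794 bases), with H3c7 (903 bases) at 0.16. The part of locus length was not tested. H2bc21, taken here after its values were seen, had its KD arrays on either side of WT, at 7.75 and 7.29 in KD hearts, against 7.61 and 7.55 in WT hearts. The loci of H2bc22 (from chr13:21787483) and H1f5 (up to chr13:21780625) lie near each other, and in KD heart replicate 1 H2bc22 lay 0.10 and H1f5 3.17 above the WT mean. The part of locus position was not tested. H2bc8 and H2bc18, which the rule for named genes did not take, differed by 0.31 and 0.27. KD heart replicates 1 and 2 lay 0.47 and 0.16 above the WT mean for H2bc8 and 0.50 and 0.05 above it for H2bc18.

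The H3 genes with a probe set of their own were H3c4, H3c7 and H3c15, for the H3 core histone, with a median difference of 0.42 and medians of 0.09 and 0.25 above the WT mean in KD heart replicates 1 and 2. H3c4 had 7.55 and 7.03 in KD hearts, against 6.77 and 6.91 in WT hearts, a difference of 0.45 (SE 0.16, interval 0.11 to 0.79, limma adjusted p 0.95). H3c15 had 4.49 and 5.15 in KD hearts, against 4.26 and 4.54 in WT hearts. It was one of the members in which KD heart replicate 2 was the higher, and its groups overlapped. The difference was 0.42 (SE 0.18); without KD heart replicate 1 it was 0.75, with a limma adjusted p of 0.17, the smallest of any member there. H3c7 was dim, at 4.55 and 4.73 in KD hearts, against 4.28 and 4.68 in WT hearts, with a difference of 0.16.

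Many histone genes share probe sets, which were annotated to several symbols and so were outside the 30 and not tested. There were 26 such histone probe sets, of which 24 were distinct, since an H2b and an H4 probe set each had a copy with the same values on every array. All had a KD minus WT heart difference above 0, with a median of 1.22. The 10 annotated to 12 H3 genes had a median of 12.87 in KD heart replicate 1 and 10.07 in KD heart replicate 2, against 9.47 and 9.92 in the WT hearts. Over these 10, KD heart replicate 1 lay 2.98 to 3.30 above the WT mean, and KD heart replicate 2 0.28 to 0.39 above it. These probe sets measure nearly the same transcripts and are not replicates. The 7 probe sets (6 distinct) annotated to 14 or 15 H2b and related symbols lay a median of 2.25 above the WT mean in KD heart replicate 1 and 0.03 above it in KD heart replicate 2. The 6 H4 probe sets (5 distinct) lay a median of 1.95 above it in KD heart replicate 1, with a range of -0.21 to 1.96, and 0.50 above it in KD heart replicate 2.

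The 6 members that are not replication-dependent lay nearer the WT mean in KD heart replicate 1. Their median was 0.09 above the WT mean in KD heart replicate 1 and 0.26 in KD heart replicate 2, while that of the 24 replication-dependent members was 0.57 and 0.19. H1f10 had 7.75 and 7.98 in KD hearts, against 7.59 and 7.63 in WT hearts, a difference of 0.26 (SE 0.12). H2ac1, a testis H2A gene, had 8.77 and 8.80 in KD hearts, against 8.52 and 8.56 in WT hearts, a difference of 0.24 (SE 0.11). In both, the KD arrays lay above the WT arrays. H2bc1, the testis H2B neighbour of H2ac1, had 7.17 and 6.54 in KD hearts, against 6.06 and 6.48 in WT hearts. Its KD arrays also lay above the WT arrays, with a difference of 0.58 (SE 0.20). It was the exception in that KD heart replicate 1 lay 0.89 above the WT mean. H1f7, a linker histone of spermatids, had 7.62 and 7.74 in KD hearts, against 7.56 and 7.61 in WT hearts, a difference of 0.09. H1f8, a linker histone of oocytes, had 6.91 and 6.99 in KD hearts, against 6.97 and 6.90 in WT hearts, a difference of 0.01 that turned below 0 with quantile normalization, centring or removal of the intensity trend. H1f6, a testis linker histone outside the rule for named genes, differed by 0.15, with KD heart replicate 1 at -0.03 and KD heart replicate 2 at 0.34 relative to the WT mean.

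**Figure D2:**
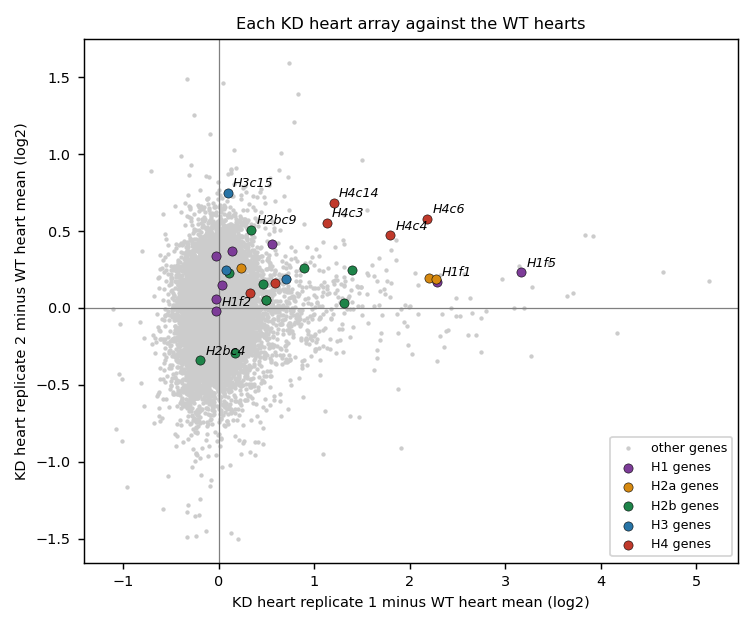
KD heart replicate 1 minus the WT heart mean (x axis, log2) against KD heart replicate 2 minus the WT heart mean (y axis, log2), with 1 coloured point per histone gene, the colour giving its family, and the other genes in grey. The H4 genes lie 0.10 to 0.68 above 0 on the y axis, and H1f5, H1f1, H2ac4 and H2ac15 lie at 2.20 to 3.17 on the x axis and at 0.17 to 0.23 on the y axis.

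Genes that act with histone supply were set beside the members and beside all genes, of which 52.5% lay higher and 47.4% lower in KD hearts. Of 17 genes of histone mRNA transcription and processing, 10 lay higher and 7 lower in KD hearts, with a median difference of 0.07. Of these 17, 0 passed the adjusted threshold (0% of all genes did). In the list as a whole the KD arrays went opposite ways: 14 of the 17 lay above the WT mean in KD heart replicate 1 (40.8% of all genes). In KD heart replicate 2, 5 did (58.6% of all genes). The medians in KD heart replicates 1 and 2 were 0.19 and -0.09. Slbp, whose protein binds the histone stem-loop, had 8.90 and 7.98 in KD hearts, against 8.57 and 8.43 in WT hearts, and its difference was -0.06. Its KD arrays lay on either side of the WT arrays. Npat had 7.92 and 7.66 in KD hearts, against 7.52 and 7.77 in WT hearts, with a difference of 0.14. Eri1, an exonuclease that trims the stem-loop end, had 9.23 and 7.83 in KD hearts, against 8.32 and 8.02 in WT hearts, with a difference of 0.36. Cstf2 and Lsm1 had the smallest unadjusted heart p-values of the list in limma, and in both the KD arrays lay above the WT arrays. Cstf2 had 8.89 and 8.62 in KD hearts, against 8.50 and 8.45 in WT hearts, and Lsm1 had 6.83 and 6.96, against 6.80 and 6.48. Of 16 histone chaperone genes 9 lay higher and 7 lower, with a median of 0.03, and medians of 0.20 and -0.13 in KD heart replicates 1 and 2. Asf1b, a chaperone of newly made H3 and H4, had 9.12 and 8.20 in KD hearts, against 7.90 and 8.19 in WT hearts. Of 8 replacement histone genes, which are made outside S phase too, 4 lay higher and 4 lower, with a median of 0.01, and medians of 0.20 and -0.12 in KD heart replicates 1 and 2. H2ax, whose protein marks DNA breaks, stood out among them at 8.45 and 7.33 in KD hearts, against 7.21 and 7.27 in WT hearts.

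Genes of S phase and mitosis lay higher in KD hearts, mostly in KD heart replicate 1. Of 31 S phase genes 29 lay higher, against 52.5% of all genes. Of the 29, 9 had an unadjusted limma p under 0.05, against 2.44% of all genes. The S phase medians were 0.51 and 0.04 above the WT mean in KD heart replicates 1 and 2. Pcna, the sliding clamp of DNA polymerase, had 10.27 and 9.06 in KD hearts, against 9.46 and 9.35 in WT hearts. Ccne2 and Gins1 had the smallest unadjusted heart p-values of the S phase list in limma. Ccne2 had 7.32 and 6.91 in KD hearts, against 6.62 and 6.67 in WT hearts, and Gins1 had 6.35 and 6.19, against 5.96 and 5.92. All 21 mitosis genes lay higher, 9 at an unadjusted limma p under 0.05 (2.44% of all genes), with medians of 1.12 and 0.11. Top2a, which untangles DNA, had 9.74 and 6.93 in KD hearts, against 7.03 and 6.97 in WT hearts. Mki67, a marker of cycling cells, had 9.15 and 7.73 in KD hearts, against 7.45 and 7.12 in WT hearts. KD heart replicate 2 thus lay below both WT arrays for Pcna and Top2a and above both for Ccne2, Gins1 and Mki67. None of these genes passed the adjusted threshold in limma (0% of all genes did).

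Cell type markers were read the same way, beside the 52.5% of all genes that lay higher and the 47.4% that lay lower in KD hearts. Of 13 thymocyte markers 12 lay higher in KD hearts, with medians of 3.14 above the WT mean in KD heart replicate 1 and 0.07 in KD heart replicate 2. Rag1, which recombines antigen receptor genes, had 11.68 and 6.73 in KD hearts, against 6.51 and 6.60 in WT hearts. Dntt, which adds bases at those joints, had 9.64 and 6.19 in KD hearts, against 5.58 and 5.86 in WT hearts. All 11 T cell markers lay higher, with medians of 1.71 and 0.01. The 8 B cell markers had medians of 0.10 and -0.22, the 13 macrophage markers -0.04 and 0.09, and the 7 erythroid markers 0.18 and 0.42. Alas2, the first enzyme of haem synthesis in red cell precursors, had 12.24 and 12.51 in KD hearts, against 11.26 and 11.97 in WT hearts, so that both KD arrays lay above both WT arrays. The 14 cardiomyocyte, 10 fibroblast and 10 endothelial markers all lay lower in KD hearts, with median differences of -0.12, -0.29 and -0.19. Their medians were -0.17, -0.26 and -0.15 in KD heart replicate 1 and -0.09, -0.31 and -0.24 in KD heart replicate 2. Of the atrial markers 8 of 9 lay lower, with medians of -0.24 and -1.03 in KD heart replicates 1 and 2. The part of these markers in the histone result was not tested.

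**Figure D3:**
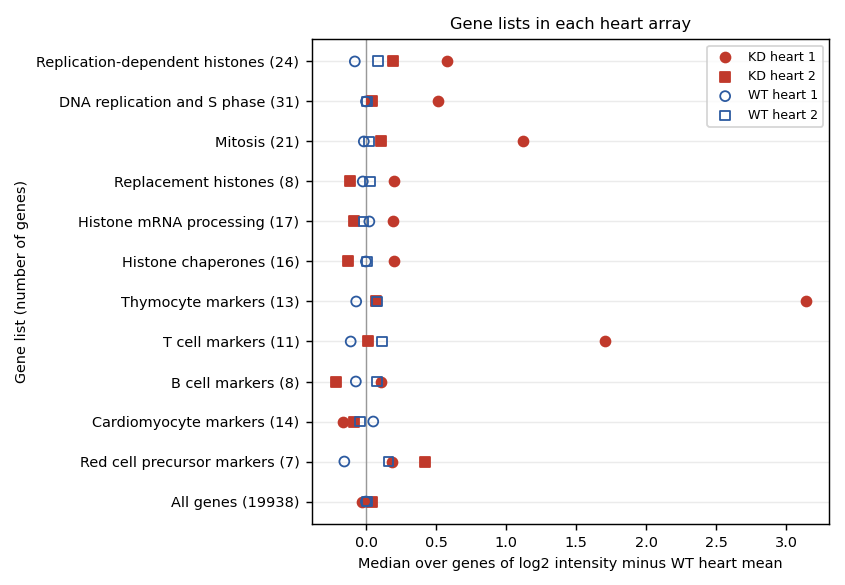
Median difference from the WT heart mean (x axis, log2) of the 24 replication-dependent histone genes, 5 lists of genes that act with them, 5 of the cell type marker lists and all genes (y axis) in each heart array. The thymocyte list lies at 3.14 in KD heart replicate 1 and 0.07 in KD heart replicate 2, and the replication-dependent histone genes lie at 0.57 and 0.19.

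In isolated ventricular cardiomyocytes the histone genes did not lie to one side. The KD minus WT difference was positive in 13 members and negative in 17, where 50% of all genes were positive, with a median of -0.02 against 0.00 over all genes and a range of -0.35 to 0.18. No member passed the adjusted threshold in limma (0% of all genes did); at an unadjusted p under 0.05 there were 0 higher members, against 0.988% of all genes, and 1 lower, against 1.11%. The 3 KD arrays exceeded the 3 WT arrays without overlap for 1 member, H2ac1 (2.99% of all genes), and lay below them for 2, H2bc3 and H2bc22 (3.21%). The thymocyte markers averaged 5.11 to 5.24 in KD and 5.19 to 5.24 in WT cardiomyocytes.

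H2bc22 was the member with the unadjusted p under 0.05. It had 5.78, 5.58 and 5.65 in KD cardiomyocytes, against 6.15, 6.05 and 5.87 in WT cardiomyocytes, without overlap. The difference was -0.35 (SE 0.11, interval -0.59 to -0.11, limma adjusted p 1). H2bc3 had 5.84, 5.83 and 5.85 in KD, against 6.07, 5.92 and 5.98 in WT, a difference of -0.15. H2ac1 had 7.28, 7.31 and 7.37 in KD, against 7.18, 7.21 and 7.24 in WT, a difference of 0.11. The intervals rest on a spread shared by all 10 arrays, the KD hearts included. Where the KD hearts lie far apart, the cardiomyocyte intervals and p-values are therefore larger than the cardiomyocyte arrays alone would give. For H2bc3 the SDs were 0.01 over KD and 0.08 over WT cardiomyocytes, against 0.90 over the KD hearts, and the SE of its cardiomyocyte difference was 0.23.

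Of the H4 genes with the smallest p-values in hearts, H4c14, H4c3 and H4c6 had KD means below the WT means in cardiomyocytes, with intervals that include 0, and the difference of H4c4 was 0.01. H4c14 had 9.47, 9.61 and 9.60 in KD cardiomyocytes, against 9.49, 9.82 and 9.61 in WT cardiomyocytes, a difference of -0.08 (SE 0.14, interval -0.38 to 0.21). H4c3 had 5.91, 5.89 and 6.08 in KD, against 6.28, 6.53 and 6.00 in WT, a difference of -0.31 (SE 0.16, interval -0.65 to 0.03), with the next smallest p of the members after H2bc22 (unadjusted p 0.07 and adjusted p 1 in limma). H4c6 had 6.79, 6.96 and 7.30 in KD, against 7.43, 7.49 and 7.15 in WT, a difference of -0.34 (SE 0.33, interval -1.04 to 0.37). H1f5 had 6.78, 6.89 and 6.76 in KD, against 6.76, 6.99 and 7.01 in WT, a difference of -0.11 (SE 0.49). Its SDs were 0.07 over KD and 0.14 over WT cardiomyocytes, against 2.08 over the KD hearts, which enter this SE. In each of these 4 genes the KD and WT arrays overlapped. The bright members H2bc4 and H1f2 overlapped too: H2bc4 had 11.18, 11.13 and 11.23 in KD, against 11.33, 11.14 and 11.00 in WT, and H1f2 had 10.07, 9.97 and 9.89 in KD, against 9.88, 9.80 and 10.27 in WT. Over the 10 shared H3 probe sets the difference ran from -0.16 to -0.09.

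**Figure D4:**
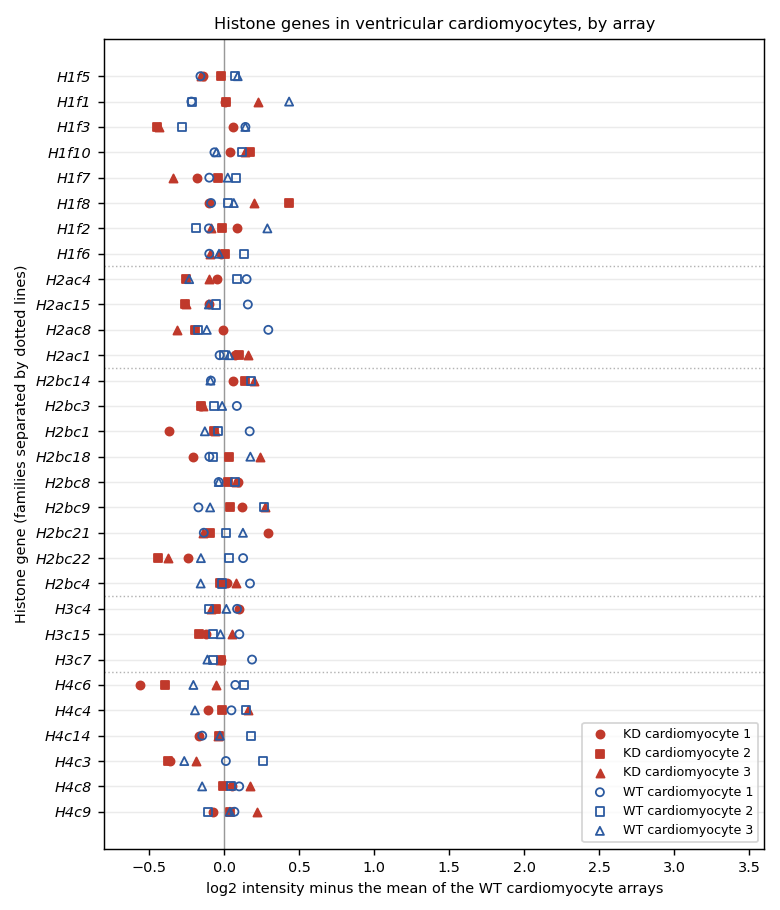
Log2 intensity of each of the 30 histone genes minus the mean of the WT cardiomyocyte arrays (x axis, with the same range as the plot of the heart arrays) in every cardiomyocyte array, with genes grouped by family along the y axis. KD and WT arrays overlap for every member except H2ac1, H2bc3 and H2bc22, and no member's KD minus WT difference leaves the range of -0.35 to 0.18.

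The difference between the KD effects, hearts minus cardiomyocytes, was then tested in the same fit. It was positive in 26 members, against 51.2% of all genes, and negative in 4, against 48.8%, with a median of 0.45. No member passed the adjusted threshold (0% of all genes did), and 12 had an unadjusted p under 0.05 with a positive difference, against 1.76% of all genes, and 0 with a negative one, against 1.74% (3.49% in either direction). The smallest p-values were those of H4c14, at 1.02 (SE 0.21, p 0.000381 and adjusted p 0.999 in limma), and H4c3, at 1.15 (SE 0.25, p 0.000463 and adjusted p 0.999 in limma). H4c6 was at 1.72 (SE 0.52), H1f5 at 1.81 (SE 0.77) and H1f3 at 0.76 (SE 0.24). H1f2 and H2bc4 were at -0.02 and -0.29. The heart and cardiomyocyte arrays differed in labelling manual as well as in tissue, which cannot be told apart here.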

How the data were processed

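Biotin-labelled cDNA of pooled total RNA was hybridised to Affymetrix whole-transcript arrays, per the labels' protocols; random-primed labelling of this type also copies RNA without a poly(A) tail. The deposited table gives 35556 probe sets as log2 intensities. The submitters' processing notes name RMA and Partek; the sources used here do not give their versions. RMA compresses differences of dim probe sets. Array medians over genes were 6.19 to 6.27 in cardiomyocytes and 7.54 to 7.59 in hearts, so the 2 kinds of sample were apparently normalized separately and KD was set against WT within each.

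By the platform annotation 21789 probe sets had 1 symbol, 1621 several and 12146 none. The probe set with the highest mean was kept for 999 genes with more than 1, which left 19938. One limma model (version 3.58.1, R 4.3.3) held 4 group means over the 10 arrays (lmFit, eBayes with an intensity trend, 6 residual and 6.81 prior degrees of freedom). Its two-sided p-values were adjusted by Benjamini and Hochberg's method over the 19938 genes, with a threshold of 0.05. Exact permutation of 2 against 2 arrays cannot give a p below 0.333, nor 3 against 3 below 0.1. The number of arrays limits the precision. Values of 11 members lay below the array median in all heart arrays and of 14 in all cardiomyocyte arrays.

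The members and all lists were chosen with earlier results of these data known, so lists are described by counts and medians without a test. Named members were up to 4 per family with the highest mean, up to 8 per contrast with the smallest p and the 3 dimmest. From each list up to 4 genes with the smallest heart p, with Slbp, Npat, Mki67, Top2a, Pcna and Rag1, could be named. Cstf2, Lsm1, Eri1, Asf1b, Ccne2 and Gins1 fall under that rule. The fit was tested on simulated data of 19938 genes. In hearts 81.4% of genes changed 2-fold and 30.4% of those changed 1.5-fold were called, and in cardiomyocytes 92.8% and 56.8%. Mean false calls were 3.8 and 8. The simulated noise of a gene was equal in all groups. The real KD hearts were less alike (correlation 0.980, against 0.993 for WT hearts), so the heart shares need not hold for these data. Alternatives covered normalization, centring, probe set choice, a filter on dim genes, fits on 1 kind of sample, array weights, the replicate number as a block, and each array left out. Figures were drawn with matplotlib 3.10.9.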

Additional observations from a re-analysis of the deposited data

How the results depend on the processing

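With each array left out in turn, the number of genes past the threshold was 0 to 303 for KD minus WT hearts (2 without WT heart replicate 1, 1, Ms4a1, without KD heart replicate 1, 303 without KD heart replicate 2) and 0 to 237 for the difference between the KD effects (2 without WT heart replicate 1, 237 without KD heart replicate 2). It was 0 throughout for cardiomyocytes, where 419 genes had an unadjusted p under 0.05 with all arrays. Without KD heart replicate 2, where the lone KD heart array is taken to vary as the other groups do, 12 members were called higher in hearts (1.48% of all genes): H1f1, H1f5, H2ac15, H2ac4, H2bc1, H2bc14, H2bc3, H3c4, H4c14, H4c3, H4c4 and H4c6. The median over the members ranged from 0.21 (without KD heart replicate 1) to 0.49 in hearts and from -0.06 to -0.01 in cardiomyocytes. Named members whose sign turned with an array left out ranged, in hearts, from -0.067 to 0.019 (H1f2), -0.026 to 0.056 (H1f8) and -0.039 to 0.36 (H3c7), and, in cardiomyocytes, from -0.028 to 0.30 (H1f1), -0.10 to 0.14 (H1f2), -0.056 to 0.11 (H2bc4), -0.071 to 0.028 (H3c4), -0.080 to 0.069 (H3c7), -0.15 to 0.0067 (H4c14) and -0.087 to 0.084 (H4c4). Of the 6 members outside the rule for named genes, H1f6 turned to -0.031 and H2bc21 to 0.17 in hearts without KD heart replicate 2.

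Nothing but the replicate number was found to pair the arrays. Deviations of same-numbered arrays correlated at 0.152, 0.131 and -0.05 in cardiomyocytes. In hearts the correlation was 0.234, a single value, since with 2 arrays a group both replicates give the same one. These correlations cannot decide whether same-numbered arrays were handled together. With the replicate number as a block 1 gene, Clec1b, was called in hearts. The H1f2 heart difference turned to 0.027 with quantile normalization and 0.025 with the intensity trend removed, and that of H1f8 to -0.044 with quantile normalization, -0.018 with arrays centred and -0.038 with the trend removed. The other alternatives kept the counts within 1.5 times and every named member's direction and side of the threshold; the cause of the changes was not tested. The members left by dropping the germ line and replication-independent genes, an alternative chosen after seeing the data, numbered 24 with a heart median of 0.44.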
